A study of Homo sapiens with 12 samples.

Results

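Interferon-stimulated genes were followed in LMSU, a line of human gastric cancer cells with the p53 variant R175H. The list held 39 symbols, chosen by name, and all 39 had a row among the 25435 symbols of the deposited count table. After a filter on low counts, 38 of them remained among the 13365 genes tested. RSAD2, which encodes the antiviral enzyme viperin, was the exception: it had 1 count in total over all 12 libraries. OASL passed the filter with only 3 libraries at its minimum level, so its values rest on very few reads.

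The 12 libraries formed 6 groups of 2. The knockdown arm, labelled as given doxycycline, held cells with p53 shRNA 1, cells with p53 shRNA 2, cells with a scramble hairpin and cells with vector. The knockout arm, labelled without doxycycline, held cells with the knockout construct sg-1 and knockout control cells with the construct V2, both marked GFP. According to the labels p53-R175H is absent from the knockout cells and both p53 hairpin groups, and present in the scramble, vector and knockout control cells. The labels do not say what the vector carries, whether a group is 1 clone or a pool, or whether its 2 libraries came from separate cultures, so n = 2 counts libraries and p-values measure the spread between these libraries only.

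Interferons are secreted proteins that cells release when they sense viral or misplaced nucleic acid. Type I interferons bind a receptor whose kinases activate STAT2 among other proteins, and a complex that holds STAT2 and IRF9 binds a short promoter element, the interferon-stimulated response element, in front of many of the genes listed here. Double-stranded RNA is a ligand of several products of these genes, among them the helicases encoded by DDX58 and IFIH1 and the OAS enzymes, so hairpin RNA constructs raise the question of whether these genes move with the construct and not with its target.

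Promoter sequences are shown for 4 members, IFI44L and BST2, which were higher in the hairpin groups than in vector, IFIT1, which was lower, and ISG15, a textbook member that did not pass the test. Each is a RefSeq window of 300 bases from GRCh38.p14, from 250 bases before to 50 bases after the annotated start, printed 5′ to 3′ on the strand of the gene. Capitals mark the core letters of the response element, GAAA, any 2 bases, then GAAA, or the same letters on the opposite strand, and neighbouring matches may overlap. The windows are IFI44L at chr1:78620198-78620497 (plus strand), BST2 at chr19:17405581-17405880 (minus strand), IFIT1 at chr10:89392373-89392672 (plus strand) and ISG15 at chr1:1013247-1013546 (plus strand).
IFI44L: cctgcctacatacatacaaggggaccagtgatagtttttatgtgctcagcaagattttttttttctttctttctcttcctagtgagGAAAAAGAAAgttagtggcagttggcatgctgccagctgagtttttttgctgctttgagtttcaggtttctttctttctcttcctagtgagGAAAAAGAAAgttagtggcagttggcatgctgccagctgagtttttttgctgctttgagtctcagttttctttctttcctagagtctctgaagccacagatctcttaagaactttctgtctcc
BST2: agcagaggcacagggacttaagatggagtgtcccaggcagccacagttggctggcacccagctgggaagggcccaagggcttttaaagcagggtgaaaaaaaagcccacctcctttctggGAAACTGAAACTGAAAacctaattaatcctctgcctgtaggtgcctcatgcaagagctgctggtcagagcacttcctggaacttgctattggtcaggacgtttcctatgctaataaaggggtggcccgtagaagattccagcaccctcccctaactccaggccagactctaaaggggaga
IFIT1: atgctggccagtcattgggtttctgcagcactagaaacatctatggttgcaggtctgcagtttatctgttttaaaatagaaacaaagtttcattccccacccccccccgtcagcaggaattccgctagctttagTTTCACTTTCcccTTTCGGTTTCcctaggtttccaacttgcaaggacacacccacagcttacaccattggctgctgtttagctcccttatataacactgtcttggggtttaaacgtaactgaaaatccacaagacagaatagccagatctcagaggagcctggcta
ISG15: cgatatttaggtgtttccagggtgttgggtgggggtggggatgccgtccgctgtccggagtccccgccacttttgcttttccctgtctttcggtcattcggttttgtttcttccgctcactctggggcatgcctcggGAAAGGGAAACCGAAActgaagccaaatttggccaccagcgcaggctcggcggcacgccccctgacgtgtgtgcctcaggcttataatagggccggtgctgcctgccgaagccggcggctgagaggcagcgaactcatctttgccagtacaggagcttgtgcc

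Each of these windows held 2 matches. In IFI44L the matches lay far apart, at positions 87 and 178 of the window, within a stretch that is repeated. In BST2 and ISG15 they overlapped, and in IFIT1 both were on the opposite strand, near each other. RefSeq windows were found for 30 of the 39 members, and 21 of these, 70.0%, held the letters, against 4.38% of the 27305 symbols with a window. A match is a description of letters, not of binding, and a window without one says only that these letters are not in it. Among the members called higher in the hairpin groups than in vector, 5 of the 7 with a window held a match, against 14 of the 21 members with a window that were not called.

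Library totals ran from 9738094 to 16823246 counts. Together the 39 members took 0.312% and 0.325% of the counts with p53 shRNA 1, 0.330% and 0.343% with p53 shRNA 2, 0.332% and 0.343% in scramble, and 0.296% and 0.301% in vector. The share was 0.156% and 0.161% in the knockout and 0.144% and 0.162% in the knockout control. The biological coefficient of variation, the spread between libraries of a group beyond counting error, was 3.08% in the knockdown arm, 15.6% in the knockout arm and 9.55% over all 12 libraries. CPM are TMM-normalised counts scaled to a common library size and are not divided by gene length. Of the epithelial markers, KRT8 and KRT18 were present, but EPCAM, CDH1 and KRT19 stayed at or below 0.247 CPM in every library, so these markers do not bear out an epithelial line. Fibroblast markers summed to 14839 to 18558 CPM in the knockdown arm and 2655 to 3445 CPM in the knockout arm. Leukocyte markers summed to at most 0.539 CPM with CD3E at 0 throughout, and the endothelial marker CDH5 was also at 0.

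Hairpin constructs were first set against vector. Of the 38 tested members, 10 were called higher and 1 lower in the mean of the p53 shRNA 1, p53 shRNA 2 and scramble groups than in vector (edgeR quasi-likelihood test, adjusted p below 0.05 over all 13365 genes). In the same comparison 19.6% of all genes were called, 8.45% higher and 11.1% lower, so the higher members made up 26.3% of the list against 8.45% of all genes. The median log2 fold change was 0.12 over the members and -0.0055 over all genes, and 25 of the 38 members were above 0. Members moved unequally: the values ran from -0.64 for IFIT1 to 1.32 for IFI44L, and classical members such as MX1, OAS3, IFIT3, STAT2 and ISG15 were not called. DESeq2 and limma-voom each called 10 higher and 1 lower. Without either vector library the count of called members was lower, as was the share of all genes called.

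**Figure D1:**
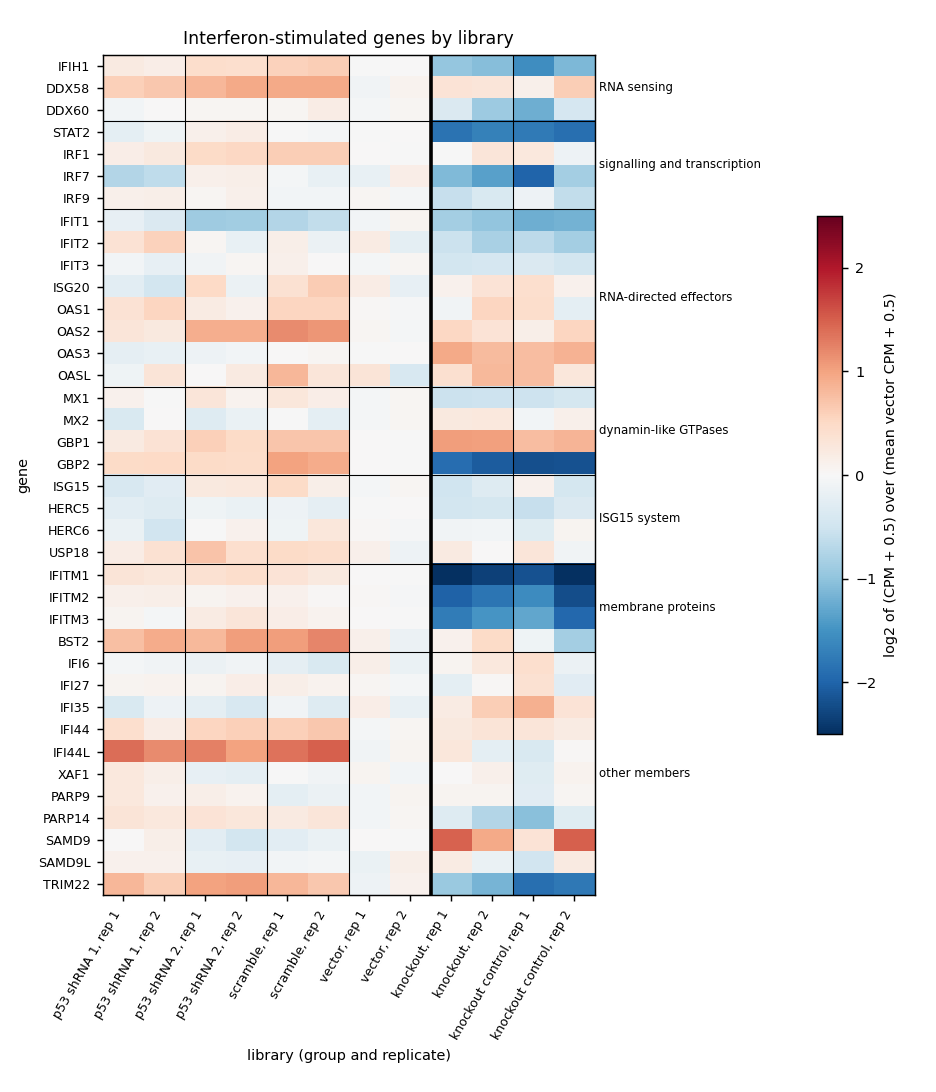
Each row is 1 of the 38 tested interferon-stimulated genes and each column 1 library, and colour gives log2 of (CPM + 0.5) over (mean vector CPM + 0.5), with red above and blue below the vector mean. IFI44L, BST2, OAS2, DDX58 and TRIM22 are red in all 6 hairpin libraries, IFIT1 is blue in them, and STAT2, GBP2 and the IFITM genes are blue in the knockout arm, which differs from vector in arm, construct and doxycycline.

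Among the RNA sensors, DDX58, which encodes RIG-I, stood at 13.7 and 14.3 CPM with p53 shRNA 1, 16.1 and 17.5 CPM with p53 shRNA 2, 17.5 and 17.5 CPM in scramble, and 8.30 and 9.40 CPM in vector. IFIH1, which encodes the related sensor MDA5, had 18.1 and 17.4 CPM with p53 shRNA 1, 21.0 and 20.8 CPM with p53 shRNA 2, 23.1 and 23.7 CPM in scramble, and 15.2 and 15.5 CPM in vector. All 6 hairpin libraries lay above both vector libraries for both sensors, and scramble was at or near the top. Over the 3 hairpin groups DDX58 rose by 0.85 on the log2 scale (SE 0.13, adjusted p 9.9e-04) and IFIH1 by 0.42 (SE 0.11, adjusted p 0.016). The call of IFIH1 was lost without vector replicate 1 (adjusted p 0.15) or vector replicate 2 (adjusted p 0.14). DDX60, a related helicase gene, was at 0.05 and not called.

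Signalling and transcription members mostly stayed near vector. IRF1, a transcription factor gene induced by interferon gamma, had 34.0 and 35.5 CPM with p53 shRNA 1, 41.98 and 42.9 CPM with p53 shRNA 2, 46.2 and 46.0 CPM in scramble, and 30.2 and 29.9 CPM in vector. It rose by 0.44 (SE 0.11, adjusted p 0.018), with no overlap between the hairpin and vector libraries, but the adjusted p was 0.14 without vector replicate 1 and 0.15 without vector replicate 2. STAT2, which encodes a subunit of the factor that drives these genes, had 153.5 and 168.7 CPM with p53 shRNA 1, 199.7 and 207.4 CPM with p53 shRNA 2, 180.4 and 177.8 CPM in scramble, and 182.1 and 183.4 CPM in vector. Its hairpin libraries lay on both sides of vector, with p53 shRNA 1 lowest and p53 shRNA 2 highest, and its log2 fold change was -0.02 (adjusted p 0.88). IRF9, which encodes the DNA-binding subunit of the same factor, had 40.5 and 41.1 CPM with p53 shRNA 1, 38.5 and 40.4 CPM with p53 shRNA 2, 35.5 and 35.6 CPM in scramble, and 38.2 and 35.9 CPM in vector. IRF7, whose product amplifies interferon gene transcription, was low: it had 2.07 and 2.25 CPM with p53 shRNA 1, 4.17 and 4.23 CPM with p53 shRNA 2, 3.64 and 3.22 CPM in scramble, and 3.24 and 4.27 CPM in vector. Neither passed the test over the 3 hairpin groups (IRF9 0.06, adjusted p 0.78; IRF7 -0.27, adjusted p 0.49).

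Effectors that act on RNA moved in both directions. OAS2, which encodes an enzyme that makes 2′-5′ oligoadenylate on double-stranded RNA, had 3.23 and 3.11 CPM with p53 shRNA 1, 5.15 and 5.15 CPM with p53 shRNA 2, 6.39 and 5.99 CPM in scramble, and 2.64 and 2.41 CPM in vector. Every hairpin library was above both vector libraries, with scramble highest, and OAS2 rose by 0.89 (SE 0.17, adjusted p 0.0032; adjusted p 0.070 without vector replicate 2). IFIT1, whose product binds RNA with unmodified 5′ ends, went the other way, with 12.7 and 11.3 CPM with p53 shRNA 1, 7.69 and 7.85 CPM with p53 shRNA 2, 8.73 and 9.43 CPM in scramble, and 14.0 and 15.5 CPM in vector. All 6 hairpin libraries were below both vector libraries, and IFIT1 fell by 0.64 (SE 0.099, adjusted p 8.7e-04). Its neighbours in the family, IFIT2 (0.16) and IFIT3 (-0.03), were not called. OAS1, which encodes another oligoadenylate synthetase, had 2.61 and 2.999 CPM with p53 shRNA 1, 2.29 and 2.08 CPM with p53 shRNA 2, 2.99 and 2.99 CPM in scramble, and 1.96 and 1.86 CPM in vector. Although these libraries did not overlap either, the difference of 0.46 did not pass the test (SE 0.25, adjusted p 0.23). OAS3 (-0.09), ISG20 (0.17) and OASL (0.65, SE 0.59) were not called.

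Dynamin-like GTPases split by family. GBP2, a guanylate-binding protein gene that responds to interferon gamma, had 171.0 and 173.4 CPM with p53 shRNA 1, 170.9 and 170.0 CPM with p53 shRNA 2, 246.6 and 235.5 CPM in scramble, and 124.6 and 121.9 CPM in vector. GBP1, of the same family, had 27.6 and 30.2 CPM with p53 shRNA 1, 35.4 and 32.9 CPM with p53 shRNA 2, 38.4 and 38.3 CPM in scramble, and 23.6 and 23.3 CPM in vector. Scramble was highest, the p53 hairpins were in between and vector was lowest for both genes, with no overlap between the hairpin and vector libraries. GBP2 rose by 0.64 (SE 0.069, adjusted p 7.3e-05) and GBP1 by 0.52 (SE 0.078, adjusted p 7.6e-04). MX1, which encodes an antiviral GTPase and is among the most used reporters of type I interferon, had 22.0 and 20.5 CPM with p53 shRNA 1, 25.4 and 21.9 CPM with p53 shRNA 2, 25.2 and 23.2 CPM in scramble, and 19.9 and 21.1 CPM in vector. Hairpin and vector libraries overlapped, and neither MX1 (0.16, SE 0.092, adjusted p 0.24) nor MX2 (-0.19, adjusted p 0.31) was called.

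The ISG15 system gave no call over the 3 hairpin groups. ISG15, which encodes a ubiquitin-like protein that is joined to other proteins, had 15.7 and 17.0 CPM with p53 shRNA 1, 25.0 and 25.3 CPM with p53 shRNA 2, 29.6 and 23.4 CPM in scramble, and 20.4 and 21.6 CPM in vector. The p53 shRNA 1 libraries were below vector and the other 4 hairpin libraries above it, with a log2 fold change of 0.08 (adjusted p 0.74). Its protease gene USP18 was at 0.59 (SE 0.24, adjusted p 0.12) with no overlap, and the ligase genes HERC5 and HERC6 were at -0.21 and -0.06. Of the membrane proteins, BST2, which encodes tetherin, had 3.06 and 3.53 CPM with p53 shRNA 1, 3.19 and 3.85 CPM with p53 shRNA 2, 3.88 and 4.42 CPM in scramble, and 1.81 and 1.42 CPM in vector. The hairpin libraries were all above vector, with both p53 hairpins overlapping and scramble above them, and BST2 rose by 1.18 (SE 0.24, adjusted p 0.0055; adjusted p 0.11 without vector replicate 2). IFITM1 (0.34), IFITM2 (0.10) and IFITM3 (0.13), whose products restrict viral entry, were not called.

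Among the other members, IFI44L, an interferon-induced gene that is often used in blood signatures, had 32.0 and 27.7 CPM with p53 shRNA 1, 29.1 and 24.5 CPM with p53 shRNA 2, 31.2 and 34.2 CPM in scramble, and 11.2 and 12.6 CPM in vector. All 6 hairpin libraries stood well above vector, with p53 shRNA 1 overlapping both other hairpin groups, and it rose by 1.32 (SE 0.16, adjusted p 1.7e-04), the largest difference among the members. TRIM22, which encodes an antiviral ubiquitin ligase and is also known as a p53 target gene, had 8.81 and 7.50 CPM with p53 shRNA 1, 9.98 and 10.3 CPM with p53 shRNA 2, 8.81 and 7.86 CPM in scramble, and 4.30 and 5.13 CPM in vector. The hairpin libraries did not overlap with vector, and TRIM22 rose by 0.90 (SE 0.14, adjusted p 7.5e-04). IFI44, a relative of IFI44L, rose by 0.51 (SE 0.085, adjusted p 0.0015). The 8 that were not called, IFI6, IFI27, IFI35, XAF1, PARP9, PARP14, SAMD9 and SAMD9L, lay between -0.26 and 0.29. Counted without a model, all 6 hairpin libraries lay above both vector libraries for 15 members and below them for 2, IFIT1 and HERC5, against 15.7% and 16.7% of all genes.

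**Figure D2:**
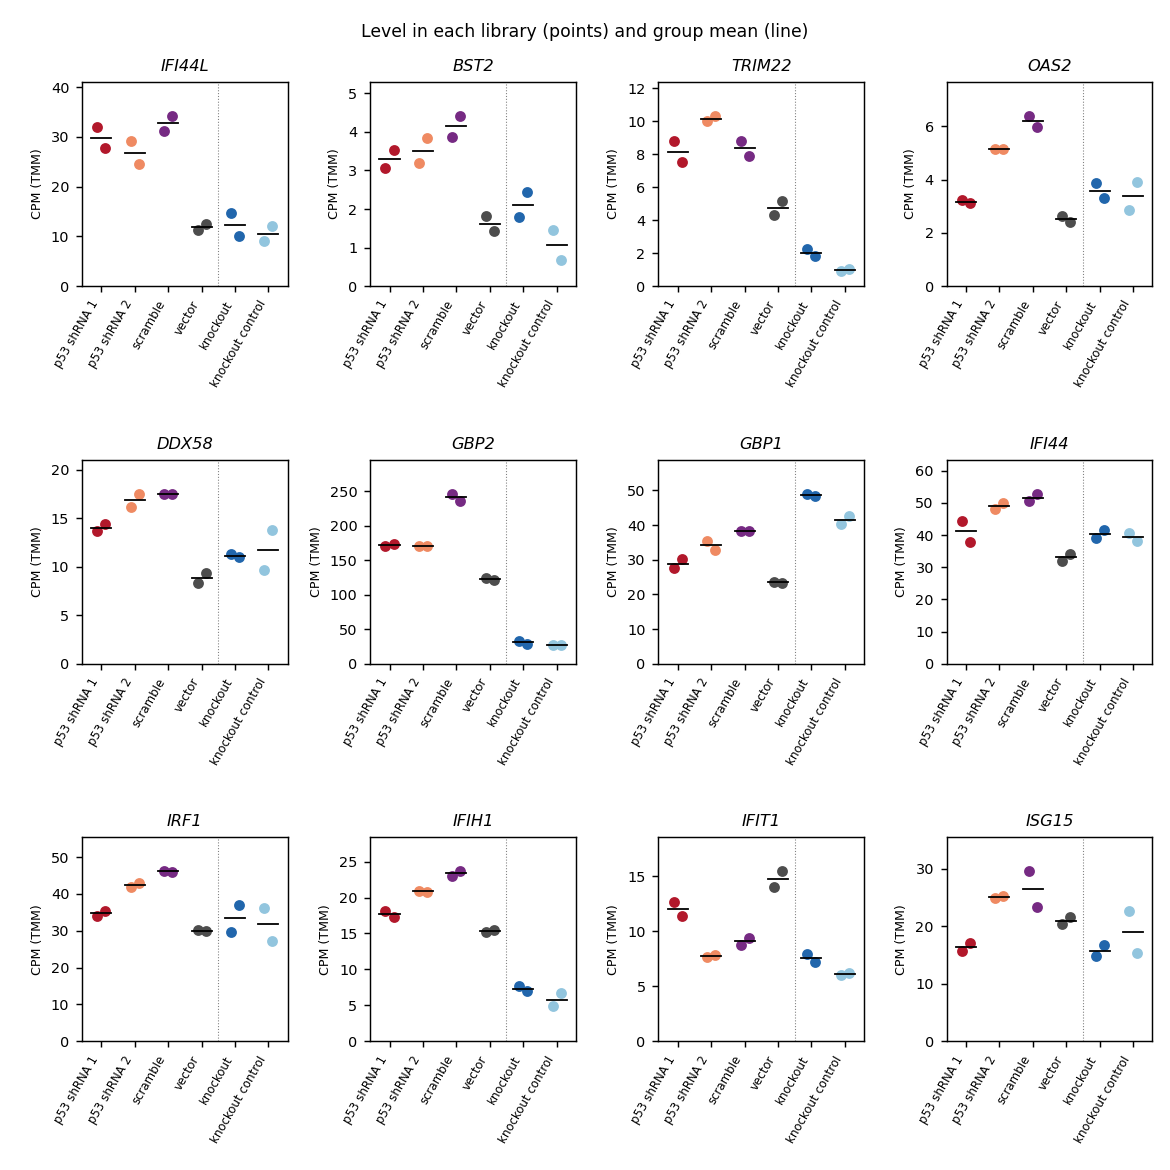
Points give the CPM (linear axis from 0) of each library and lines the group mean of 2 for the 11 members called in the 3 hairpin groups over vector, and for ISG15. Vector lies below the hairpin groups for 10 genes and above them for IFIT1, scramble has the highest mean of the knockdown arm for all of those 10 except TRIM22, and the dotted line separates the knockout arm.

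The comparisons of single constructs with vector share the 2 vector libraries, so their values are given side by side and are not independent. Scramble, a hairpin not directed at p53, had 10 members higher and 1 lower than vector, with 15.3% of all genes called, 7.1% higher and 8.16% lower. With p53 shRNA 1 there were 5 higher and 0 lower, with 13% of all genes called, 5.78% higher and 7.26% lower. With p53 shRNA 2 there were 10 higher and 1 lower, with 21% of all genes called, 9.21% higher and 11.7% lower. The mean of both p53 hairpins had 8 higher and 1 lower, with 18.4% called, 8.04% higher and 10.4% lower. For the 0 lower with p53 shRNA 1 by edgeR, DESeq2 and limma-voom also gave 0, and 4 members had an unadjusted p below 0.05. With the knockdown-arm libraries alone, edgeR called 12 members higher and 5 lower with p53 shRNA 1, against 19% and 21.7% of all genes. Leaving out 1 library moved these counts together with the share of all genes called. For the mean of both p53 hairpins and for p53 shRNA 1, the count and the share were lower without either vector library. For p53 shRNA 1 they were also lower without either of its own libraries. In both comparisons they were higher without either knockout control library, whose spread enters the shared estimate.

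In scramble over vector the log2 fold changes were 1.46 for IFI44L (SE 0.18, adjusted p 3.1e-04), 1.37 for BST2, 1.29 for OAS2, 0.98 for DDX58, 0.97 for GBP2, 0.81 for TRIM22, 0.71 for GBP1, 0.64 for IFI44, 0.62 for IRF1, 0.61 for IFIH1 and -0.70 for IFIT1. All 11 were called, with adjusted p-values of at most 0.0097. With p53 shRNA 1 the called members were IFI44L (1.33), BST2 (1.03), TRIM22 (0.79), DDX58 (0.66) and GBP2 (0.48), while OAS2 was at 0.33 (adjusted p 0.37) and IFIT1 at -0.29 (adjusted p 0.15). Of those 5, IFI44L stayed called in all 12 fits that left out a library, while BST2 did so in 2 (adjusted p of up to 0.25) and DDX58 in 8. With p53 shRNA 2, IFI44L was at 1.17, BST2 at 1.13, TRIM22 at 1.10, OAS2 at 1.03 and IFIT1 at -0.93, all called, and BST2 kept its call in 9 of the 12 fits that left out a library. IFI44L, OAS2, DDX58, GBP2, GBP1, IFI44 and IFIT1 stayed called in scramble over vector whichever of the 12 libraries was left out, whereas BST2, TRIM22, IRF1 and IFIH1 each lost the call in 2 to 4 of the 12, with adjusted p-values of up to 0.083.

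The knockdown itself was read against scramble, whose 2 libraries also enter scramble over vector with the opposite sign, so these comparisons are not independent. Against scramble, 0 members were called higher and 2 lower in the mean of both p53 hairpins. Of all genes 6.77% were called, 3.11% higher and 3.66% lower. The median log2 fold change was -0.10 over the members and -0.0050 over all genes, and 24 of 38 members were below 0. GBP2 fell by 0.49 (SE 0.069, adjusted p 0.0020) and OAS2 fell by 0.61 (SE 0.16, adjusted p 0.039), and for both all 4 p53 hairpin libraries were below both scramble libraries. GBP2 missed the threshold without scramble replicate 1 (adjusted p 0.056), and OAS2 kept its call in 2 of the 12 fits that left out a library and lost it in DESeq2 (adjusted p 0.19). The count of called members was lower without any single knockdown-arm or knockout library, and higher without either knockout control library. The share of all genes called moved the same way. For the 0 higher by edgeR, DESeq2 and limma-voom also called 0, and 1 member had an unadjusted p below 0.05. With the knockdown-arm libraries alone, edgeR called 3 members higher and 8 lower, against 14.5% and 15.3% of all genes. All 4 p53 hairpin libraries lay above both scramble libraries for 3 members, IFI6, IRF9 and PARP9, and below them for 9, against 14.3% and 14.3% of all genes.

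Each p53 hairpin was also set against scramble singly, and both share the scramble libraries. With p53 shRNA 1, 0 members were higher and 4 lower, with 9.41% of all genes called, 4.4% higher and 5.01% lower. OAS2 fell by 0.96 (SE 0.19, adjusted p 0.011), ISG15 by 0.69 (SE 0.18, adjusted p 0.032), GBP2 by 0.49 (SE 0.081, adjusted p 0.0040) and GBP1 by 0.41 (SE 0.094, adjusted p 0.020). Of the 12 fits that left out a library, ISG15 kept its call in 4, OAS2 and GBP1 in 8 each and GBP2 in 10. In edgeR with a replicate block, ISG15 (adjusted p 0.081) and GBP1 (adjusted p 0.078) lost the call. With p53 shRNA 2, 0 were higher and 1 lower, GBP2, which fell by 0.50 (SE 0.081, adjusted p 0.0038), with 7.74% of all genes called, 3.58% higher and 4.15% lower. That call was kept in 9 of the 12 fits. DESeq2 and limma-voom called 0 higher with either hairpin, and an unadjusted p below 0.05 was reached by 3 members that were higher with p53 shRNA 1 and by 1 with p53 shRNA 2. In edgeR on the knockdown-arm libraries alone, 5 members were higher and 13 lower with p53 shRNA 1, against 16.2% and 16.9% of all genes, and 4 were higher and 2 lower with p53 shRNA 2, against 16.7% and 14.9%. The count with p53 shRNA 1 was lower without either of its libraries or either scramble library, and higher without either knockout control library. With p53 shRNA 2 it was lower without either of its libraries or scramble replicate 1, and higher without either knockout control library. In each of these fits the share of all genes called moved the same way.

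**Figure D3:**
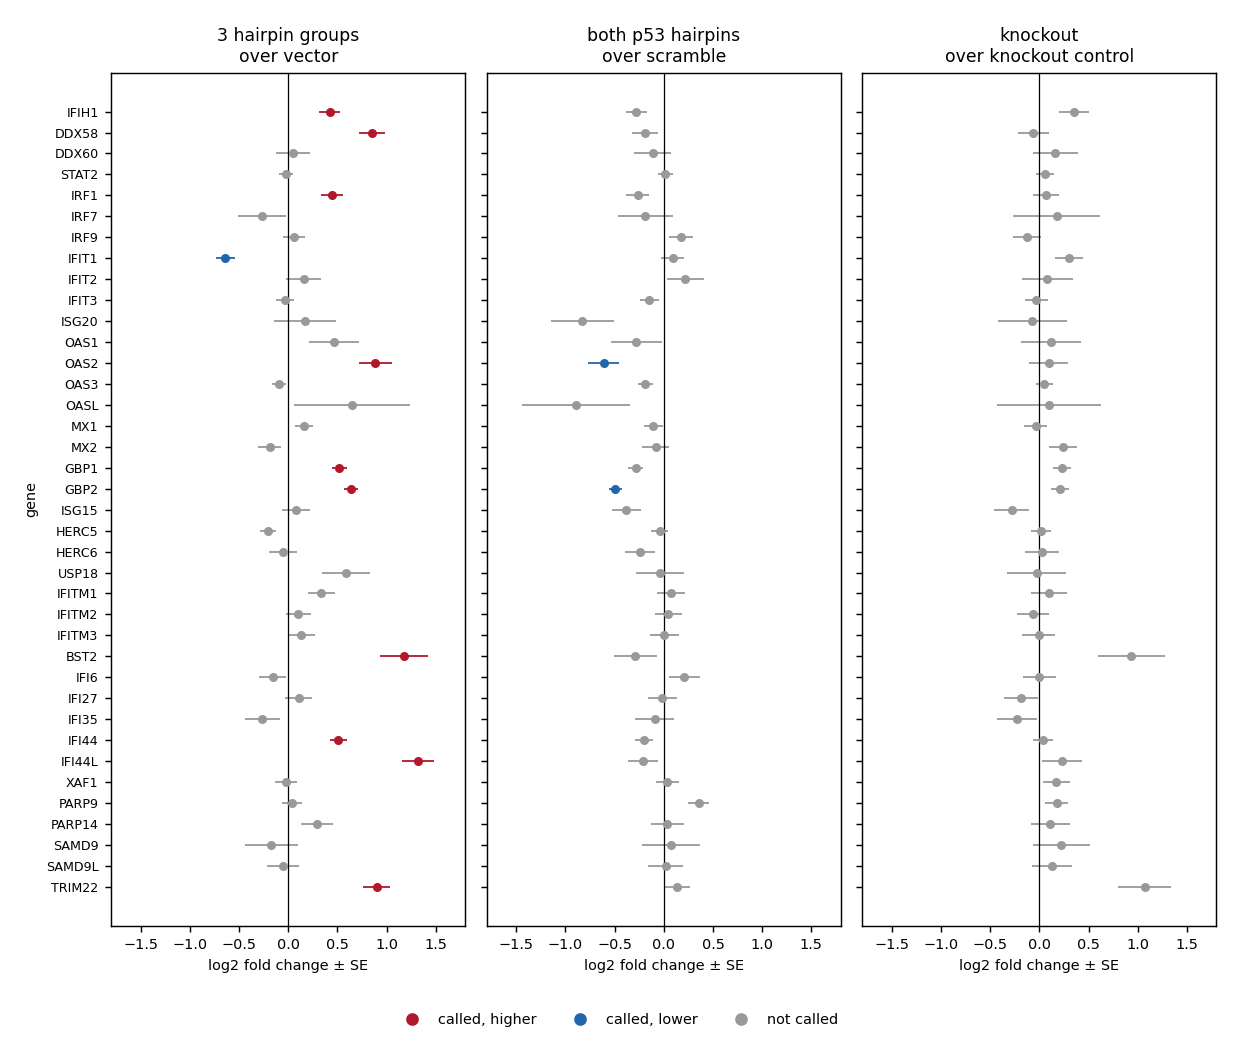
Log2 fold change with its standard error for the 38 tested members (rows) in 3 comparisons: the 3 hairpin groups over vector, both p53 hairpins over scramble, and knockout over knockout control. Red and blue mark members called higher or lower by edgeR at adjusted p below 0.05, which are 11, 2 and 0 of the 38, and grey marks the rest.

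Both p53 hairpins carry different sequences against 1 target, and they were compared directly. In p53 shRNA 1 over p53 shRNA 2, 1 member was higher and 3 were lower, with 14.3% of all genes called, 7.07% higher and 7.21% lower. IFIT1 rose by 0.63 (SE 0.13, adjusted p 0.0097), while OAS2 fell by 0.70 (SE 0.20, adjusted p 0.039), ISG15 fell by 0.62 (SE 0.18, adjusted p 0.038) and STAT2 fell by 0.34 (SE 0.088, adjusted p 0.025). For each of these 4 genes the libraries of both hairpins did not overlap. As the genes were chosen by their calls in the same libraries, this adds no separate support. None of these calls held in every fit that left out a library. The count was lower without any single knockdown-arm library and higher without either knockout control library, and the share of all genes called moved the same way.

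Knockout cells carry no hairpin according to the labels and offer a comparison without one. By edgeR 0 of the 38 members were called in the knockout over its control, where 0.015% of all genes were called, and DESeq2 and limma-voom also called 0. An unadjusted p below 0.05 was reached by 5 members, all higher in the knockout: TRIM22, BST2, GBP1, IFIH1 and GBP2. TRIM22 had 2.22 and 1.83 CPM in the knockout, against 0.904 and 1.02 CPM in the knockout control, a log2 fold change of 1.07 (SE 0.27, adjusted p 0.45). BST2 had 1.78 and 2.44 CPM in the knockout and 1.46 and 0.681 CPM in the knockout control, a log2 fold change of 0.93 (SE 0.34, adjusted p 0.72). Neither pair of groups overlapped, but both genes were at few reads.

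Some other members differed more between the 2 knockout control libraries than between the group means. ISG15 had 14.8 and 16.7 CPM in the knockout and 22.7 and 15.4 CPM in the knockout control. SAMD9, whose product restricts viral translation, had 30.9 and 21.1 CPM in the knockout and 13.7 and 31.2 CPM in the knockout control. In both genes the groups overlapped. Without knockout control replicate 2 the comparison called 15 members, 9 higher and 6 lower, with the lone control library assumed to vary like the other groups. In that fit 30.3% of all genes were called, 14.3% higher and 15.9% lower. Among them TRIM22, IFIH1 and GBP1 were higher and ISG15 and IRF9 lower in the knockout, with adjusted p-values between 0.012 and 0.049. Without any other single library the comparison called 0. The RNA sensors followed no common pattern. DDX58 had 11.3 and 11.03 CPM in the knockout and 9.67 and 13.8 CPM in the knockout control, which overlapped. IFIH1 had 7.64 and 7.04 CPM in the knockout and 4.87 and 6.72 CPM in the knockout control, without overlap (0.35, SE 0.16, adjusted p 0.77).

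Signalling members of the knockout arm overlapped between the groups. STAT2 had 50.5 and 56.3 CPM in the knockout and 53.3 and 49.0 CPM in the knockout control, and IRF1 had 29.7 and 37.0 CPM in the knockout and 36.2 and 27.3 CPM in the knockout control. IRF9 had 24.9 and 28.4 CPM in the knockout and 34.0 and 24.0 CPM in the knockout control, and IRF7 had 1.48 and 1.15 CPM in the knockout and 0.556 and 1.87 CPM in the knockout control. For both IRF9 and IRF7 the control libraries lay on either side of the knockout libraries. Among the effectors some groups overlapped and others did not. GBP1 had 49.1 and 48.3 CPM in the knockout and 40.4 and 42.6 CPM in the knockout control, without overlap (0.23, SE 0.089, adjusted p 0.73), and OAS1 had 1.78 and 2.98 CPM in the knockout and 2.78 and 1.53 CPM in the knockout control. MX1 had 14.0 and 14.2 CPM in the knockout and 14.1 and 14.9 CPM in the knockout control, and OAS2 had 3.86 and 3.32 CPM in the knockout and 2.85 and 3.92 CPM in the knockout control. IFIT1 had 7.94 and 7.17 CPM in the knockout and 6.05 and 6.21 CPM in the knockout control, and IFI44L had 14.6 and 10.02 CPM in the knockout and 8.97 and 12.1 CPM in the knockout control. Of MX1, OAS2, IFIT1 and IFI44L, only IFIT1 had groups that did not overlap (0.30, SE 0.14, adjusted p 0.77).

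The difference between the knockout effect and the knockdown effect was tested directly, as knockout over its control minus both p53 hairpins over scramble. It was called for 1 member, GBP2, with 1.1% of all genes called. GBP2 had 32.8 and 29.0 CPM in the knockout and 26.4 and 26.9 CPM in the knockout control, and the difference of the effects was 0.70 (SE 0.11, adjusted p 0.016). The call was lost without knockout replicate 1, without vector replicate 1 or without any single p53 hairpin or scramble library. Without either knockout control library the count of called members was higher, as was the share of all genes called.

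**Figure D4:**
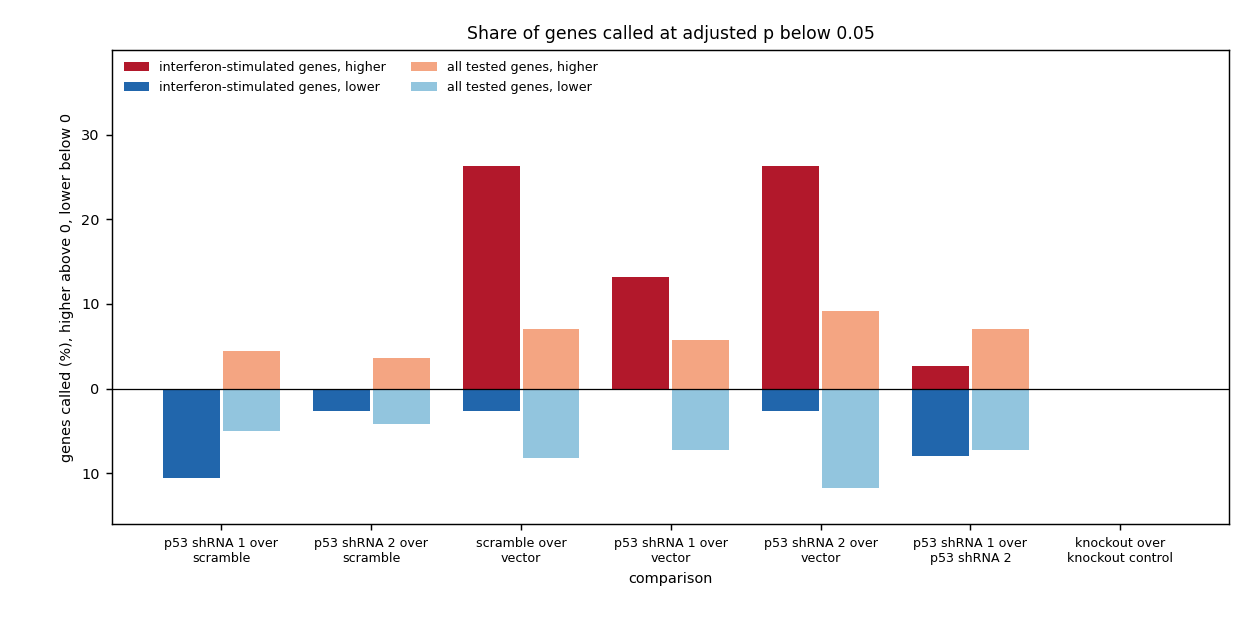
Bars give the percentage of the 38 tested interferon-stimulated genes and of all 13365 tested genes called by edgeR at adjusted p below 0.05, higher above 0 and lower below 0, in 7 comparisons. The higher members reach 26.3% in scramble over vector and p53 shRNA 2 over vector, against 7.1% and 9.21% of all genes, and 0% in both comparisons with scramble.

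Levels also differed between the arms, where arm, construct and doxycycline cannot be told apart and no test was made. GBP2 had 121.9 to 246.6 CPM in the knockdown arm and 26.4 to 32.8 CPM in the knockout arm. STAT2 had 153.5 to 207.4 CPM in the knockdown arm and 49.0 to 56.3 CPM in the knockout arm, and IFITM1 had 163.7 to 223 CPM and 21.1 to 36.0 CPM. OAS3 was the other way round, with 49.3 to 60.3 CPM in the knockdown arm and 99.1 to 111.7 CPM in the knockout arm, as was GBP1, with 23.3 to 38.4 CPM in the knockdown arm and 40.4 to 49.1 CPM in the knockout arm. The members therefore did not share 1 direction between the arms.

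The rest of the pathway was read from lists. Of 21 interferon genes, 0 passed the filter on low counts: no gene exceeded 6 counts in any library, and IFNB1, the gene of interferon beta, had 1 count in all. At this depth interferon transcripts were not detectable beyond these counts in any group. The list of receptors and kinases held 13 tested genes, with STAT genes, SOCS1, SOCS3 and PIAS1 among them. Of these 13, 4 were higher and 0 lower in scramble over vector, and 2 were higher and 2 lower in both p53 hairpins over scramble. Of all genes, 7.1% were higher and 8.16% lower in scramble over vector, and 3.11% and 3.66% in the p53 hairpins over scramble, and the counts of the next lists stand against the same shares. IFNGR2, a chain of the interferon gamma receptor, had 117.7 and 115.0 CPM with p53 shRNA 1, 124.9 and 132.0 CPM with p53 shRNA 2, 166.7 and 158.3 CPM in scramble, and 91.3 and 90.96 CPM in vector. It rose by 0.83 in scramble over vector (adjusted p 1.1e-04) and fell by 0.41 in the p53 hairpins over scramble (adjusted p 0.0089). Both comparisons use the 2 scramble libraries with opposite sign, so a high scramble level enters both, here and in the genes and lists below. IFNAR2, a chain of the type I receptor, rose by 0.63 in scramble over vector (adjusted p 0.0014) and was at -0.25 in the p53 hairpins over scramble (adjusted p 0.12). IL10RB, a receptor chain used by interferon lambda, rose by 0.54 and fell by 0.34 in the same comparisons, and IFNGR1, the ligand-binding chain for interferon gamma, rose by 0.34 in the p53 hairpins over scramble. When single libraries were left out, IFNGR2 and IFNAR2 kept their calls in scramble over vector and IL10RB did not. Against scramble IFNGR2, IL10RB and IFNGR1 each lost the call without either scramble library. There IL10RB lost it in 10 and IFNGR1 in 5 of the 12 fits that left out a library. Both also lost it with a replicate block (adjusted p 0.12 and 0.078), and IL10RB in DESeq2 (adjusted p 0.070).

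Of 20 tested genes of nucleic acid sensing, 4 were higher and 2 lower in scramble over vector, and 0 were called in the p53 hairpins over scramble by edgeR, DESeq2 or limma-voom, with an unadjusted p below 0.05 for 3 (1 higher, 2 lower). With the knockdown-arm libraries alone, edgeR called 2 of them higher and 3 lower over scramble, against 14.5% and 15.3% of all genes. Their 2 lower genes in scramble over vector are a share near the 8.16% of all genes. AIM2, which encodes a sensor of double-stranded DNA, rose by 1.12 (adjusted p 3.7e-04), TBK1, the kinase that activates IRF3, by 0.61 (adjusted p 0.0044) and the adaptor gene TRAF3 by 0.43 (adjusted p 0.0047), all in scramble over vector. TMEM173, which encodes the DNA-sensing adaptor STING, fell by 0.48 (adjusted p 0.019). AIM2 kept its call whichever library was left out. TBK1, TRAF3 and TMEM173 lost it without vector replicate 1 and without 1 of the scramble libraries, and TMEM173 also without vector replicate 2. EIF2AK2, which encodes PKR, the kinase that double-stranded RNA activates, had 83.9 and 79.7 CPM with p53 shRNA 1, 89.8 and 79.6 CPM with p53 shRNA 2, 80.5 and 94.7 CPM in scramble, and 82.1 and 86.0 CPM in vector. These libraries overlapped throughout, and EIF2AK2 was at 0.06 in scramble over vector (adjusted p 0.91).

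A list of 27 other tested interferon-stimulated genes had 5 higher and 0 lower in scramble over vector, and 3 higher (HELZ2, SP110 and TNFSF10) and 1 lower (TRIM14) in the p53 hairpins over scramble. Without scramble replicate 1 all 4 of these calls over scramble were lost (adjusted p 0.14, 0.12, 0.13 and 0.26), as they were without scramble replicate 2, and DESeq2 did not call TNFSF10 (adjusted p 0.11) or TRIM14 (adjusted p 0.081). These calls are for the mean of both p53 hairpins. Singly over scramble, TNFSF10 was at 1.44 with p53 shRNA 1 and 0.01 with p53 shRNA 2. SP110 was at 0.06 and 0.77, TRIM14 at 0.10 and -0.89 and HELZ2 at 0.21 and 0.52, in the same order. TNFSF10 was called with p53 shRNA 1 alone, and SP110, TRIM14 and HELZ2 with p53 shRNA 2 alone. EPSTI1 rose by 0.89 (adjusted p 2.6e-04), PLSCR1 by 0.49 (adjusted p 8.1e-04), TNFSF10, which encodes the death ligand TRAIL, by 1.37 (adjusted p 0.0019) and IFI30, a lysosomal reductase gene, by 0.83 (adjusted p 0.0026) in scramble over vector. Of 11 tested genes that respond to interferon gamma, 5 were higher and 0 lower in scramble over vector, with a list median of 0.50. In the p53 hairpins over scramble, 0 were higher and 4 lower, with a list median of -0.37. In all 3 hairpin groups over vector, 1 of the 11 was higher and 1 lower, with a list median of 0.25. The lists of receptors and kinases, of sensing and of other genes had 6, 5 and 7 higher and 0, 2 and 1 lower there. Of all genes, 8.45% were higher and 11.1% lower in that comparison. CD274, which encodes PD-L1, had 4.67 and 4.71 CPM with p53 shRNA 1, 5.32 and 5.001 CPM with p53 shRNA 2, 9.14 and 10.03 CPM in scramble, and 5.13 and 4.27 CPM in vector. Scramble stood apart from both p53 hairpins and from vector, and CD274 rose by 1.04 in scramble over vector (adjusted p 0.0011) and fell by 0.96 in the p53 hairpins over scramble (adjusted p 0.0022). GBP5 fell by 1.09 in the p53 hairpins over scramble (adjusted p 0.0016), and GBP4, at no more than 2.26 CPM, fell by 1.51 there (adjusted p 0.011) and rose by 1.88 in scramble over vector (adjusted p 0.0032). GBP3 rose by 0.53 in scramble over vector (adjusted p 0.0028) and was at 0.07 in the p53 hairpins over scramble. GBP5 and GBP3 kept these calls whichever library was left out, and CD274 missed the threshold against scramble without scramble replicate 2. GBP4 lost its call against scramble without either scramble library or p53 shRNA 1 replicate 2. In scramble over vector GBP4 lost the call without vector replicate 2. In the knockout, 0 genes of these 4 lists were called by edgeR, DESeq2 or limma-voom, and an unadjusted p below 0.05 was reached by 1 gene in each of the lists of receptors and kinases, of sensing and of other interferon-stimulated genes, each higher, and by 0 in the interferon gamma list. Without knockout control replicate 2, the fit that called 30.3% of all genes, 4 receptor and kinase genes were higher and 0 lower, 5 sensing genes were higher and 3 lower, 4 other interferon-stimulated genes were higher and 5 lower, and 0 genes of the interferon gamma list were higher and 1 lower.

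Fibroblast markers moved in the same comparisons: 4 of the 6 were higher in the 3 hairpin groups than in vector, 3 of 6 in the p53 hairpins than in scramble, and 1 of 6 in the knockout than in its control, against 8.45%, 3.11% and at most 0.015% of all genes. The 3 called over scramble, COL3A1, DCN and LUM, lost the call without scramble replicate 1 (adjusted p 0.10, 0.090 and 0.23) or scramble replicate 2 (adjusted p 0.12, 0.14 and 0.30), and LUM kept it in 2 of the 12 fits that left out a library. The p53 hairpins differed in these 3 genes over scramble. COL3A1 was at 0.71 with p53 shRNA 1 and 0.04 with p53 shRNA 2. DCN was at -0.08 and 0.87 and LUM at -0.24 and 0.81, in the same order. COL3A1 was called with p53 shRNA 1 alone, and DCN and LUM with p53 shRNA 2 alone. DCN, which encodes the matrix proteoglycan decorin, rose by 2.48 over vector (adjusted p 2.1e-08) and by 0.69 in the knockout (adjusted p 0.038). The knockout call was lost in limma-voom (adjusted p 0.070), with a replicate block (adjusted p 0.37), with the libraries of the arm only (adjusted p 0.998), and in 10 of the 12 fits that left out a library. The 6 markers summed to 17234 and 18558 CPM with p53 shRNA 1, 14839 and 15256 CPM with p53 shRNA 2, 15903 and 16686 CPM in scramble, and 14923 and 14956 CPM in vector. The endothelial markers summed to 1.18 to 1.54 CPM in the hairpin groups and 0.495 to 0.754 CPM in vector, with CDH5 at 0. In bulk libraries, more cells of a type and more RNA per cell cannot be told apart, and the part of these markers in the results above was not tested.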

How the data were processed

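RNA was sequenced from LMSU cells in 12 libraries, and the authors deposited their raw counts by gene symbol, as whole numbers without normalisation. Per the submitters' processing notes, bcl2fastq, STAR 2.5 and the hg19 build were used, and per the labels' protocols, an mRNA library kit was applied to total RNA. How reads were counted, with which strand setting and on which annotation, is not given in the sources used here, so reads of overlapping genes and of close paralogs (IFITM and IFIT genes among them) may be shared or split. Columns were matched to libraries by title.

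From these counts, genes were filtered with filterByExpr (minimum count 10) and scaled with TMM, and 6 group coefficients were fitted to all 12 libraries with the quasi-likelihood test of edgeR 4.0.16 in R 4.3.3 as a two-sided test. Within each of 11 comparisons, Benjamini-Hochberg adjustment ran over 13365 genes, and a gene was called below 0.05. The CPM given are TMM-normalised. The procedure was run on simulated data in which each gene had the same spread in all 12 libraries. The arms differed in spread here, so that run does not test the effect of unequal spread. Alternatives were DESeq2 1.42.0, limma-voom (limma 3.58.1), RLE size factors, no filter, the libraries of 1 arm only, a replicate block and each library left out. Same-numbered libraries of the knockdown arm did not deviate together (correlations between -0.036 and 0.0045), and those of the knockout arm deviated oppositely (-0.47). Libraries of every group differed by more than sampling noise (chi-square per degree of freedom 1.54 to 32.6).

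The members and the lists were chosen with earlier results of these data known. Values in every library are given for the sensors and core members and for the called members with the largest change, and up to 4 genes per further list by smallest adjusted p. Promoter windows came from RefSeq (GRCh38.p14), matched by symbol, and no coordinate of the hg19 files was used. The level of the targeted gene and some genes of the further lists are not reported here. Figures were drawn with matplotlib 3.10.9.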

Additional observations from a re-analysis of the deposited data

Results flagged for a closer look

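GBP2 differed between the knockout and the knockdown effect by a log2 value of 0.70 (SE 0.11, adjusted p 0.016 by edgeR). It was at 0.21 in the knockout over its control (adjusted p 0.76), and it fell by 0.49 in both p53 hairpins over scramble (adjusted p 0.0020). Both knockout libraries were above both control libraries, and all 4 p53 hairpin libraries were below both scramble libraries. DESeq2 and limma-voom kept the call, and it was lost with a replicate block. The knockdown effect is measured against scramble, where GBP2 was 0.97 higher than in vector, and both p53 hairpins were 0.47 higher than vector (adjusted p 8.8e-04).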

How the results depend on the processing

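RLE size factors changed 0 of the 11 counts of called members, and no result reversed under any setting. Without the filter on low counts, the counts stayed within 1.5 times. With the libraries of the arm only, whose spread is smaller in the knockdown arm, called members numbered 11 (3 higher, 8 lower) for both p53 hairpins, 18 (5 and 13) for p53 shRNA 1 and 6 (4 and 2) for p53 shRNA 2 over scramble, where 29.8%, 33.2% and 31.5% of all genes were called. Over vector they numbered 18 (14 and 4) for both p53 hairpins, 17 (12 and 5) for p53 shRNA 1, 19 (15 and 4) for p53 shRNA 2, 18 (14 and 4) for scramble and 17 (14 and 3) for all 3 hairpin groups, with 40.7% to 46.7% of all genes called. For p53 shRNA 1 over p53 shRNA 2 there were 13 (5 and 8), with 38.8% of all genes. By non-overlap (a count chosen after seeing the data) 17 members separated all 3 hairpin groups from vector. They were 15 above and 2 below, against 15.7% and 16.7% of all genes. DESeq2 called 1 for both p53 hairpins over scramble, where it called 6.78% of the genes it tested.

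The replicate block gave 1 for both p53 hairpins over scramble, 2 for p53 shRNA 1 over scramble, 1 for p53 shRNA 1 over p53 shRNA 2 and 0 for the difference between knockout and knockdown effects. With the block 2.87%, 4.5%, 8.37% and 0.18% of all genes were called in these comparisons. Without it the shares were 6.77%, 9.41%, 14.3% and 1.1%, so the calls over all genes fell too. The labels do not say that a number pairs libraries. In the knockout the block and a crossed pairing, chosen after seeing the data, gave 0. Of all genes, 0.00748% were called there with the block and 2.1% with the crossed pairing.

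With each library left out in turn, the lowest and highest counts were 0 and 7 for both p53 hairpins, 0 and 10 for p53 shRNA 1 and 0 and 2 for p53 shRNA 2 over scramble. Over vector they were 4 and 14 for both p53 hairpins, 2 and 13 for p53 shRNA 1, 8 and 14 for p53 shRNA 2, 8 and 14 for scramble and 7 and 14 for all 3 hairpin groups. They were 0 and 8 for p53 shRNA 1 over p53 shRNA 2, 0 and 15 for the knockout and 0 and 11 for the difference of the effects. In every fit that gave a highest count, the share of all genes called was also higher than with all 12 libraries. In the fits that gave a lowest count the share was lower, except in the knockout, where 0 members were called with all 12 libraries too. These ranges therefore moved with the calls over all genes and do not describe the members alone. Low counts limit RSAD2, OASL, ISG20, IRF7 and the interferon genes.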
